A study of Mus musculus with 8 samples.

Results

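The activin and TGF-beta genes examined here are 10 of the 56923 genes counted in bulk RNA sequencing of mouse thymic epithelial cells (TECs), the cells that form the stromal scaffold in which T cells mature. They are the ligand genes *Inhba*, *Inhbb*, *Tgfb1* and *Tgfb2*, the secreted inhibitors *Fst* and *Fstl3*, the intracellular inhibitors *Pmepa1*, *Smad7* and *Skil*, and the target gene *Tgfbi*. They were found in the count files by their Ensembl gene identifiers, and all 10 passed the filter of at least 1 CPM (a gene's count scaled to its library's total) in at least 3 of the 8 libraries, which 14504 genes passed. *Inhba* and *Pmepa1* were chosen by their measured levels in 2D culture, so every value of these genes that involves 2D culture or the *in vivo* baseline of that choice is given as a description, without a test.

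All TECs came from E16.5 thymi of wild-type C57BL/6J mice, sorted as EpCAM-positive cells, with 2 libraries in each of 4 groups. *In vivo* TECs were lysed directly after the sort. 2D-cultured TECs were grown on laminin-coated plates for 3 days, until confluent. Organoids were grown from sorted TECs in growth factor-reduced Matrigel and taken at day 3 (D3) or day 7 (D7). 2D cultures and organoids received the same defined medium, a basal organoid medium with B-27, N2, N-acetylcysteine and the fibroblast growth factor FGF7, so cultured groups share this medium, and both were seeded with sorted cells alone. Sorted cells were caught in medium with serum and thiazovivin, and organoids had thiazovivin for their first 2 days. Its use in 2D culture is not spelled out in the methods. The libraries of a group are labelled as biological replicates, and p-values measure the spread within these pairs.

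Activins are dimers of inhibin beta subunits, and *Inhba* and *Inhbb* encode these subunits. Activins and TGF-betas bind pairs of serine/threonine kinase receptors, which phosphorylate SMAD2 and SMAD3, and these enter the nucleus with SMAD4. Several genes that the pathway turns on encode its own inhibitors, among them *Smad7*, *Skil*, *Pmepa1* and *Fst*, and their transcripts are widely used as readouts of signalling. In the thymus, follistatin and activins are known from work on the maturation of TECs.

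Totals were 5084715 to 7612532 counts per library. Transcripts of *Epcam*, *Krt8*, *Krt18*, *Krt5*, *Foxn1* and *Psmb11* were counted in all 8 libraries, but the cortical gene *Psmb11* had only 3 to 7 counts in 2D culture and D3 organoids, and *Foxn1* had 26 to 69 counts there, against at least 1287 counts *in vivo*. Summed levels of 9 thymocyte genes were 661 and 292 CPM *in vivo*, with 1 and 0 of the genes at 0, and 2.36 to 9.29 CPM in the 6 cultured libraries, with 2 to 6 of the genes at 0 and *Ptcra* at 0 in each. Summed levels of 10 mesenchymal genes were 51.3 and 52.7 CPM *in vivo*, 36.9 and 41.5 CPM in 2D culture, 22.6 and 26.9 CPM in D3 organoids and 74.3 and 82.6 CPM in D7 organoids, with 1 to 3 of the genes at 0 and *Pdgfra* at 0 in both *in vivo* libraries. The part of other cells in the results on activin and TGF-beta genes was not tested. In bulk RNA, fewer cells that express a gene and less of its RNA per cell cannot be told apart.

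Promoter sequence was taken from RefSeq (GRCm38.p6) for the 6 of the 10 genes that its table held, *Inhba*, *Inhbb*, *Tgfb1*, *Tgfb2*, *Fstl3* and *Tgfbi*. The 250 bases before the start were searched on both strands for CAGAC, the core letters that SMAD3 and SMAD4 are known to bind. The first 3 sequences are shown because each held 2 matches and their genes were higher in 2D culture than *in vivo*, and the *Inhba* sequence is shown because it held none although *Inhba* had the highest 2D level among the ligand genes. Capitals mark the matches, which read GTCTG where the motif lies on the other strand.
*Tgfb2* promoter, chr1:186705990-186706239, minus strand: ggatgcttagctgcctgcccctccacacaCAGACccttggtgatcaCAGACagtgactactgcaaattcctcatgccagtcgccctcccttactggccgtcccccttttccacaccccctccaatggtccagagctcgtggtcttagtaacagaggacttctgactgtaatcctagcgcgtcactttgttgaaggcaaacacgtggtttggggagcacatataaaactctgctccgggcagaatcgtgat
*Fstl3* promoter, chr10:79777024-79777273, plus strand: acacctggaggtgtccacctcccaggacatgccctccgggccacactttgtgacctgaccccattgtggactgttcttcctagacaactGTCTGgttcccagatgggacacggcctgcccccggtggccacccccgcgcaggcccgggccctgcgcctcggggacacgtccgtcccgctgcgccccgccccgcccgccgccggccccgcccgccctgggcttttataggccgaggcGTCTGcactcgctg
*Tgfbi* promoter, chr13:56609336-56609585, plus strand: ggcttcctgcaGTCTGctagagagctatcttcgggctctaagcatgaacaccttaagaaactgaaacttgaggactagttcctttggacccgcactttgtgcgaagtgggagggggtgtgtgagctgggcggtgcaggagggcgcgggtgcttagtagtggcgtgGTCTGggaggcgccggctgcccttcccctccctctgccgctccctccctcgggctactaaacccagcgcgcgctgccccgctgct
*Inhba* promoter, chr13:16011601-16011850, plus strand: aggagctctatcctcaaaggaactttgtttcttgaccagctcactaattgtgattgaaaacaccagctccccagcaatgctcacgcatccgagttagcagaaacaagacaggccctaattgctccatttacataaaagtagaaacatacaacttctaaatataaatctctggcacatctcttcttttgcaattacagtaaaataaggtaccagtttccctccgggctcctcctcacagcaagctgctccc

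Of 32851 promoter windows of this length in the table, 42.2% held at least 1 CAGAC match and 11.7% held at least 2. *Inhbb* and *Tgfb1* held none, like *Inhba*. The AP-1 letters TGANTCA were in none of the 6 windows and in 6.75% of all windows. The GC-rich letters GGCGC, which SMADs also bind, were in 32.0% of all windows, with 3 matches in *Tgfbi*, 2 each in *Inhbb* and *Fstl3*, 1 in *Tgfb1* and none in *Tgfb2* or *Inhba* (overlapping matches were counted separately, and none overlapped a CAGAC match). GC content was 43.2% in the *Inhba* window, 53.6% in *Tgfb2*, 62.4% in *Tgfbi*, 68.0% in *Inhbb*, 71.2% in *Fstl3* and 75.2% in *Tgfb1*. A match is a description of the letters, and no match concerns only this window.

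In 2D culture compared with *in vivo*, 6 of the 8 genes other than *Inhba* and *Pmepa1* rose and none fell. Those that rose were *Tgfb2*, *Fst*, *Fstl3*, *Smad7*, *Skil* and *Tgfbi*. Among all 14504 genes tested, 19.9% were called higher and 21.7% lower. The median log2 fold change of the 8 genes was 1.98, against -0.06 over all genes tested. All genes and lists were chosen with earlier results of these data known. Counts of called genes and medians, here and below, are therefore descriptions and not independent support. Here and below, calls are from edgeR's quasi-likelihood test, fitted to all libraries at once, at an adjusted p (Benjamini-Hochberg, over the genes tested) under 0.05.

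**Figure D1:**
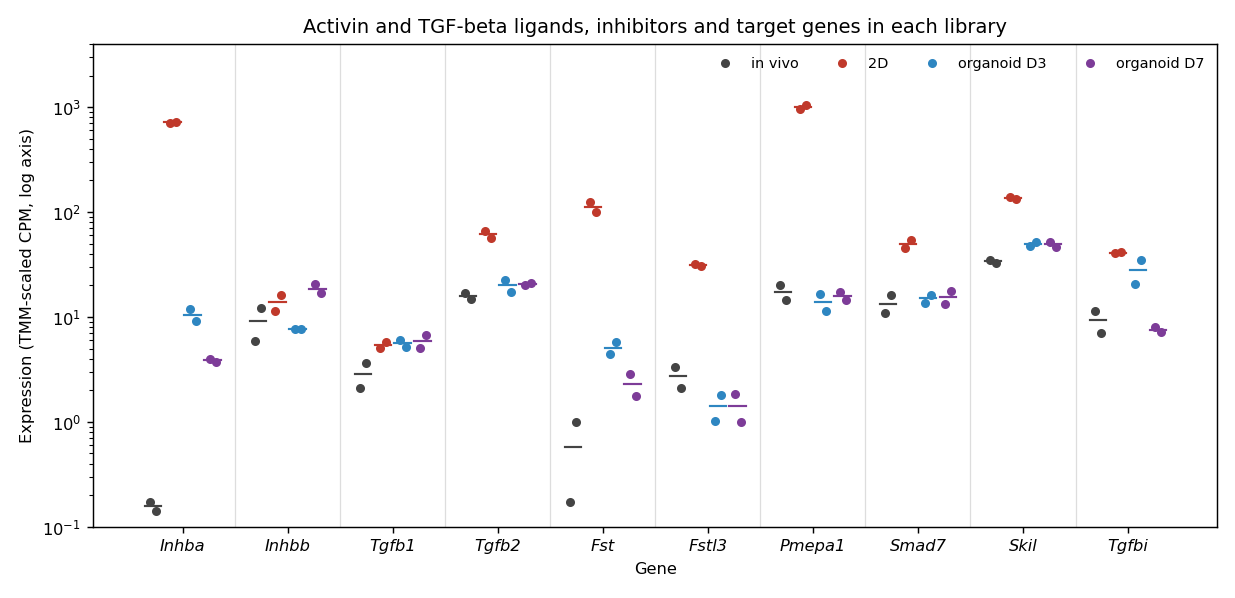
Expression of the 10 genes in each of the 8 libraries, in CPM scaled by trimmed mean of M values (TMM), on a log axis. Points are libraries and short bars are means of 2 libraries. *Fst*, *Fstl3*, *Tgfb2*, *Smad7*, *Skil* and *Tgfbi* have both 2D libraries above all 6 others, as do *Inhba* and *Pmepa1*, which were chosen by their 2D levels. The share of all genes with this separation is not given here. *Tgfb1* lies between 2.09 and 6.72 CPM in every library.

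Among the ligands, *Inhba* (ENSMUSG00000041324, GRCm39 chr13:16186373-16206206, plus strand) had 1 count in each *in vivo* library, 0.174 and 0.141 CPM. In 2D culture it had 3904 and 3917 counts, 709.9 and 727 CPM. D3 organoids had 71 and 65 counts, 12.0 and 9.09 CPM, and D7 organoids had 32 and 19 counts, 3.97 and 3.76 CPM. The 4 groups did not overlap and followed the order 2D, D3, D7, *in vivo*.

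Because *Inhba* was at the floor of detection *in vivo*, its ratios to that group rest on 2 counts. The ratio of scaled counts was 4611 for 2D culture, with an exact 95% counting interval of 1276 to 38078, and its fitted change ranked 4 from the top of 14504. The ratio was 66.8 (18.1 to 557) in D3 organoids and 24.9 (6.56 to 212) in D7 organoids. These ratios use the *in vivo* values against which 2D induction was seen, and are descriptions too. Between D3 and D7 organoids, a comparison without 2D or *in vivo* levels, *Inhba* fell by 1.43 ± 0.24 (SE) on the log2 scale (adjusted p = 0.000528). The 2D mean stood 68.5 times above D3 organoids and 184 times above D7 organoids in the fit. Intervals cover counting error only.

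*Inhbb* (ENSMUSG00000037035, chr1:119343193-119350021, minus strand), the other beta subunit gene, did not share this pattern. It had 5.92 and 12.3 CPM *in vivo*, 11.5 and 16.1 CPM in 2D culture, 7.60 and 7.69 CPM in D3 organoids and 20.5 and 16.8 CPM in D7 organoids. The *in vivo* libraries differed about as much from each other as from 2D culture, with which they overlapped, and D7 organoids were above all other libraries. *Inhbb* was higher in D7 organoids than *in vivo* (log2 fold change 1.02 ± 0.35, adjusted p = 0.0307) and than in D3 organoids (1.29 ± 0.36, adjusted p = 0.0162). These calls are not firm. The first was lost with DESeq2 (adjusted p = 0.0563), without *in vivo* replicate 1 (log2 fold change 0.61) and without either D7 library, and the second without either D3 library or D7 replicate 1. The change from *in vivo* to 2D, 0.59 ± 0.36, did not pass (adjusted p = 0.205), although it did without *in vivo* replicate 2 (1.23, adjusted p = 0.0236). The summed level of mesenchymal genes was also highest in D7 organoids, where *Dcn* gave most of it (53.6 and 51.0 CPM). Of the others, *Lum*, *Col1a2*, *Twist1* and *Pdgfra* had higher means in D7 organoids than *in vivo*. *Col1a1*, *Col3a1*, *Pdgfrb*, *Postn* and *Prrx1* had lower ones. The part of mesenchymal cells in the *Inhbb* values was not tested.

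Within each library, *Inhba* and *Inhbb* together gave the makeup of beta subunit transcripts. With 3′ end sequencing a transcript gives reads near its 3′ end only, so counts of different genes were compared without scaling by length. *Inhba* made up 2.86% (exact binomial interval 0.0723 to 14.9) and 1.14% (0.0288 to 6.17) of these counts *in vivo*. It made up 98.4% and 97.8% in 2D culture, 61.2% and 54.2% in D3 organoids, and 16.2% and 18.3% in D7 organoids. The major beta subunit transcript was therefore *Inhbb in vivo* and in D7 organoids and *Inhba* in 2D culture. In the second D3 library the interval, 44.8 to 63.3%, spanned an even split.

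*Tgfb2* (ENSMUSG00000039239, chr1:186354985-186438294, minus strand), whose promoter with 2 CAGAC matches is given above, had 16.9 and 14.8 CPM *in vivo*. It had 66.6 and 57.0 CPM in 2D culture, 22.6 and 17.3 CPM in D3 organoids and 20.3 and 21.0 CPM in D7 organoids. Both 2D libraries were above all others. *Tgfb2* rose in 2D culture by 1.96 ± 0.23 on the log2 scale over *in vivo* (adjusted p = 2.14e-06), and was also higher than in D3 organoids (1.63 ± 0.22, adjusted p = 1.73e-05) and D7 organoids (1.58 ± 0.22, adjusted p = 2.07e-05). Its organoid changes from *in vivo*, 0.33 ± 0.23 and 0.38 ± 0.23, did not pass the test.

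*Tgfb1* (ENSMUSG00000002603, chr7:25386390-25404506, plus strand) was the lowest of these ligands in every cultured group except for *Inhba* in D7 organoids. Its levels were 2.09 and 3.67 CPM *in vivo*, 5.09 and 5.75 CPM in 2D culture, 6.08 and 5.17 CPM in D3 organoids and 5.09 and 6.72 CPM in D7 organoids. None of the 6 comparisons passed for *Tgfb1*. All 6 cultured libraries lay above both *in vivo* libraries, and log2 fold changes over *in vivo* were 0.90 ± 0.53, 0.95 ± 0.52 and 1.01 ± 0.52 in 2D, D3 and D7. The gene had 12 to 41 counts per library.

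*Tgfb3*, the third TGF-beta gene and a member of the wider list described below, was set beside these for the makeup of TGF-beta transcripts. *Tgfb2* made up 59.1% and 50.2% of *Tgfb1*, *Tgfb2* and *Tgfb3* counts *in vivo* and 57.4% and 56.0% in 2D culture. It made up 23.7% and 22% in D3 organoids and 29.0% and 33.2% in D7 organoids. *Tgfb3* made up 69.9% and 71.5% in D3 organoids and 63.7% and 56.1% in D7 organoids, against 33.5% to 38.3% in the other 4 libraries. *Tgfb1* made up 7.32% and 12.4% *in vivo* and 4.39% and 5.66% in 2D culture. Organoids had mainly *Tgfb3*.

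**Figure D2:**
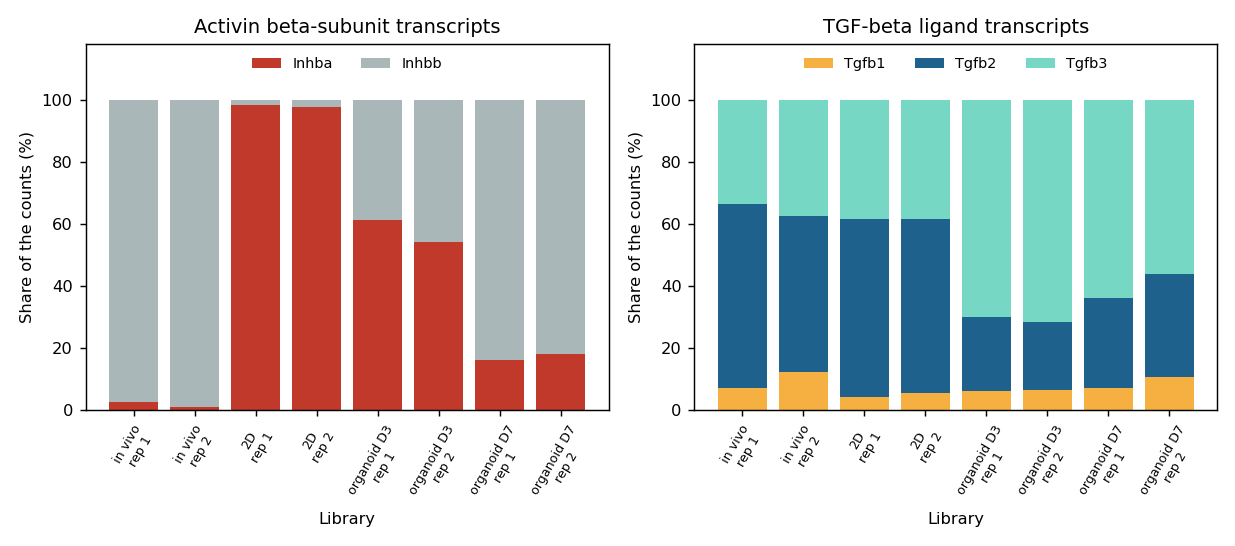
Makeup of activin beta subunit counts (left) and of TGF-beta ligand counts (right) in each library, as percent of the counts of the genes named. *Inhba* makes up over 97% of beta subunit counts in both 2D libraries and under 3% in both *in vivo* libraries, and *Tgfb3* takes more than 56% of TGF-beta counts in each organoid library.

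Both secreted inhibitors were higher in 2D culture than in every other group. *Fst* (ENSMUSG00000021765, chr13:114588731-114595521, minus strand) encodes follistatin, which binds activins and blocks their access to receptors. It had 1 and 7 counts *in vivo*, 0.174 and 0.987 CPM, and 688 and 536 counts in 2D culture, 125 and 99.5 CPM. D3 organoids had 4.39 and 5.73 CPM and D7 organoids had 2.85 and 1.78 CPM. As for *Inhba*, the 4 groups did not overlap and had the order 2D, D3, D7, *in vivo*.

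*Fst* rose in 2D culture over *in vivo* by 7.46 ± 0.40 on the log2 scale (adjusted p = 1.73e-10). This was the largest change among the 8 genes other than *Inhba* and *Pmepa1*, and it ranked 55 from the top of all genes tested. With 1 count in *in vivo* replicate 1, the size depended on that group: it was 9.19 without *in vivo* replicate 2 and 6.80 without replicate 1. *Fst* was also higher in D3 organoids than *in vivo* (3.0 ± 0.50, adjusted p = 0.000194, with 2.35 to 4.73 when a library was left out). The rise in D7 organoids (1.92 ± 0.57, adjusted p = 0.0142) was lost with limma-voom (adjusted p = 0.127), in a fit of these groups alone (0.157), without *in vivo* replicate 1 (0.118) and without D7 replicate 1 (0.160). From D3 to D7 the change was -1.08 ± 0.39 (adjusted p = 0.0574), and across alternatives its adjusted p ran from 0.0236 to 0.303, with a negative value in each.

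*Fstl3* (ENSMUSG00000020325, chr10:79613096-79618464, plus strand), a follistatin-like protein that also binds activins, had a different order from *Fst*. It had 3.31 and 2.12 CPM *in vivo*, 31.6 and 30.6 CPM in 2D culture, 1.01 and 1.82 CPM in D3 organoids and 1.86 and 0.989 CPM in D7 organoids. The 2D libraries stood apart, and the organoid libraries lay below both *in vivo* libraries. *Fstl3* rose in 2D culture over *in vivo* (3.53 ± 0.42, adjusted p = 2.93e-06), D3 organoids (4.42 ± 0.45, adjusted p = 6.13e-07) and D7 organoids (4.37 ± 0.45, adjusted p = 5.83e-07). Its organoid changes from *in vivo* were -0.89 ± 0.51 and -0.84 ± 0.51 and did not pass (both adjusted p = 0.218), at 5 to 19 counts per library. *Prss57*, on the opposite strand, overlaps *Fstl3* and had 8.53 and 6.35 CPM *in vivo* and at most 0.169 CPM in culture. Whether counting used strand was not stated, so reads of these genes cannot be told apart.

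Counts of the ligand and its inhibitors were compared within libraries, which needs no scaling. There were 5.67 and 7.31 *Inhba* counts per *Fst* count in 2D culture, 2.73 and 1.59 in D3 organoids and 1.39 and 2.11 in D7 organoids. *In vivo* the counts of both were too few for a ratio. Per *Fstl3* count there were 22.4 and 23.7 *Inhba* counts in 2D culture, 11.8 and 5.0 in D3 organoids and 2.13 and 3.80 in D7 organoids. *In vivo*, *Fstl3* counts outnumbered *Inhba* counts, 19 to 1 and 15 to 1. *Inhba* counts thus exceeded counts of either inhibitor in all 6 cultured libraries, most in 2D. For *Fst* in D7 organoids this excess was within counting error. There the exact binomial intervals of the *Fst* share of *Fst* and *Inhba* counts were 28.7 to 55.9% and 15.9 to 52.4%. Both spanned an even split. Since *Inhba* was chosen by its 2D level, these ratios are a description.

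Of the intracellular inhibitors, *Pmepa1* (ENSMUSG00000038400, chr2:173066251-173118444, minus strand) encodes a membrane protein that keeps SMAD2 and SMAD3 from the receptors. It had 20.2 and 14.5 CPM *in vivo*, 968 and 1045 CPM in 2D culture, 16.7 and 11.3 CPM in D3 organoids and 17.2 and 14.6 CPM in D7 organoids. The 2D libraries were far above the others, which overlapped with each other. Its fitted change in 2D culture over *in vivo*, given as a description, was 5.86 on the log2 scale, rank 140 of 14504. The fitted changes over *in vivo* were -0.31 ± 0.22 in D3 organoids and -0.10 ± 0.22 in D7 organoids. The change from D3 to D7, which does not compare 2D or *in vivo* levels, was 0.21 ± 0.22 and did not pass (adjusted p = 0.567).

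*Smad7* (ENSMUSG00000025880) encodes the inhibitory SMAD that competes for the receptors. It had 10.8 and 16.1 CPM *in vivo*, 45.3 and 54.0 CPM in 2D culture, 13.7 and 16.4 CPM in D3 organoids and 13.3 and 17.6 CPM in D7 organoids. The 2D libraries stood above the other 6, which overlapped. *Smad7* rose in 2D culture over *in vivo* (1.88 ± 0.26, adjusted p = 1.84e-05), and over D3 and D7 organoids by 1.72 ± 0.26 and 1.70 ± 0.26. Its organoid changes over *in vivo* were 0.16 ± 0.27 and 0.18 ± 0.27, neither past the test.

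*Skil* (ENSMUSG00000027660, chr3:31148816-31176740, plus strand) encodes SnoN, a nuclear protein that represses SMAD target genes. It had 35.2 and 32.4 CPM *in vivo*, 138 and 133 CPM in 2D culture, 47.1 and 51.9 CPM in D3 organoids and 51.6 and 46.7 CPM in D7 organoids. Replicates were close, and both organoid groups lay between *in vivo* and 2D. *Skil* rose 4.01-fold in 2D culture over *in vivo* (log2 2.01 ± 0.18, adjusted p = 6.95e-08). It was 1.47-fold higher in D3 organoids (0.55 ± 0.18, adjusted p = 0.0261) and 1.46-fold higher in D7 organoids (0.54 ± 0.18, adjusted p = 0.0239). Both organoid calls were lost without either *in vivo* library, the D3 call also without D3 replicate 2 and in a fit of these groups alone (adjusted p = 0.0671), and the D7 call without either D7 library, while the values stayed between 0.47 and 0.65.

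*Tgfbi* (ENSMUSG00000035493, chr13:56757336-56787375, plus strand) encodes an extracellular matrix protein and was named for its induction by TGF-beta. It had 11.5 and 7.05 CPM *in vivo*, 40.4 and 41.8 CPM in 2D culture, 20.4 and 35.1 CPM in D3 organoids and 8.06 and 7.12 CPM in D7 organoids. D3 organoids varied most, and D7 organoids lay within the *in vivo* range. *Tgfbi* rose in 2D culture (2.16 ± 0.30, adjusted p = 1.98e-05) and in D3 organoids (1.60 ± 0.30, adjusted p = 0.000661) over *in vivo*, and it fell from D3 to D7 by 1.87 ± 0.31 (adjusted p = 0.000505). 2D culture and D3 organoids differed by 0.56 ± 0.28, which did not pass (adjusted p = 0.125), although it did without D3 replicate 2 (0.99, adjusted p = 0.0378).

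**Figure D3:**
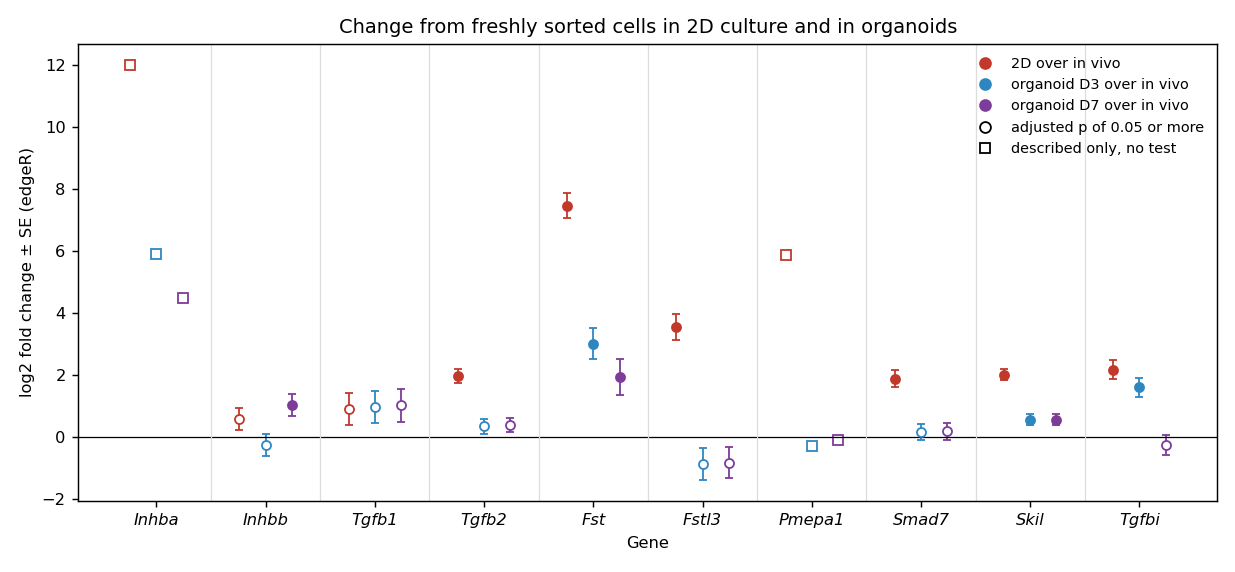
Log2 fold changes over *in vivo* for the 10 genes, with standard errors, in 2D culture, D3 organoids and D7 organoids. Filled points passed an adjusted p of 0.05, open points did not, and squares mark values described without a test because 2D induction chose the gene. In organoids *Fst* and *Skil* passed on both days, while *Smad7*, *Tgfb1*, *Tgfb2* and *Fstl3* passed on neither.

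Over the organoid comparisons, 3 of the 8 genes other than *Inhba* and *Pmepa1* were called higher in D3 organoids than *in vivo* (*Fst*, *Tgfbi* and *Skil*) and none lower. Among all genes 14.1% were higher and 14% lower. In D7 organoids 3 of 8 were higher (*Fst*, *Inhbb* and *Skil*) and none lower, against 18% and 16.8% of all genes. *Inhba* and *Pmepa1* were left out of these counts because their *in vivo* levels bore on their choice. The D7 count rested on single libraries, since each of its calls was lost when some libraries were left out, as given above. Medians over the 10 genes, with *Inhba* and *Pmepa1* included as descriptions, were 0.44 and 0.46 on the log2 scale, against -0.01 and 0.01 over all genes.

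Between cultures, 5 of the 8 genes other than *Inhba* and *Pmepa1* were higher in 2D culture than in D3 organoids. Against D7 organoids 6 of 8 were higher, with none lower in either comparison. Among all genes, 19.1% were higher and 19.3% lower in 2D than in D3, and 21.1% were higher and 24.4% lower in 2D than in D7. The gene called against D7 organoids only was *Tgfbi*, whose level had fallen by then. Medians were 1.54 and 1.64, against -0.03 and -0.10 over all genes. From D3 to D7, 1 of the 10 genes rose (*Inhbb*) and 2 fell (*Inhba* and *Tgfbi*), where 10.9% of all genes rose and 9.91% fell. The comparisons share libraries and are not independent of each other.

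The wider pathway was described by a list of 50 further genes, of which 39 passed the filter. In 2D culture over *in vivo*, 17 of the 39 were higher, 9 lower and 13 did not pass, where 19.9% of all genes were higher and 21.7% lower, a share near that of the 9 lower. In D3 organoids 12 were higher and 7 lower (14.1% and 14% of all genes), and in D7 organoids 12 were higher and 11 lower (18% and 16.8% of all genes). The median log2 fold changes of the 39 genes were 0.37, -0.09 and -0.16.

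**Figure D4:**
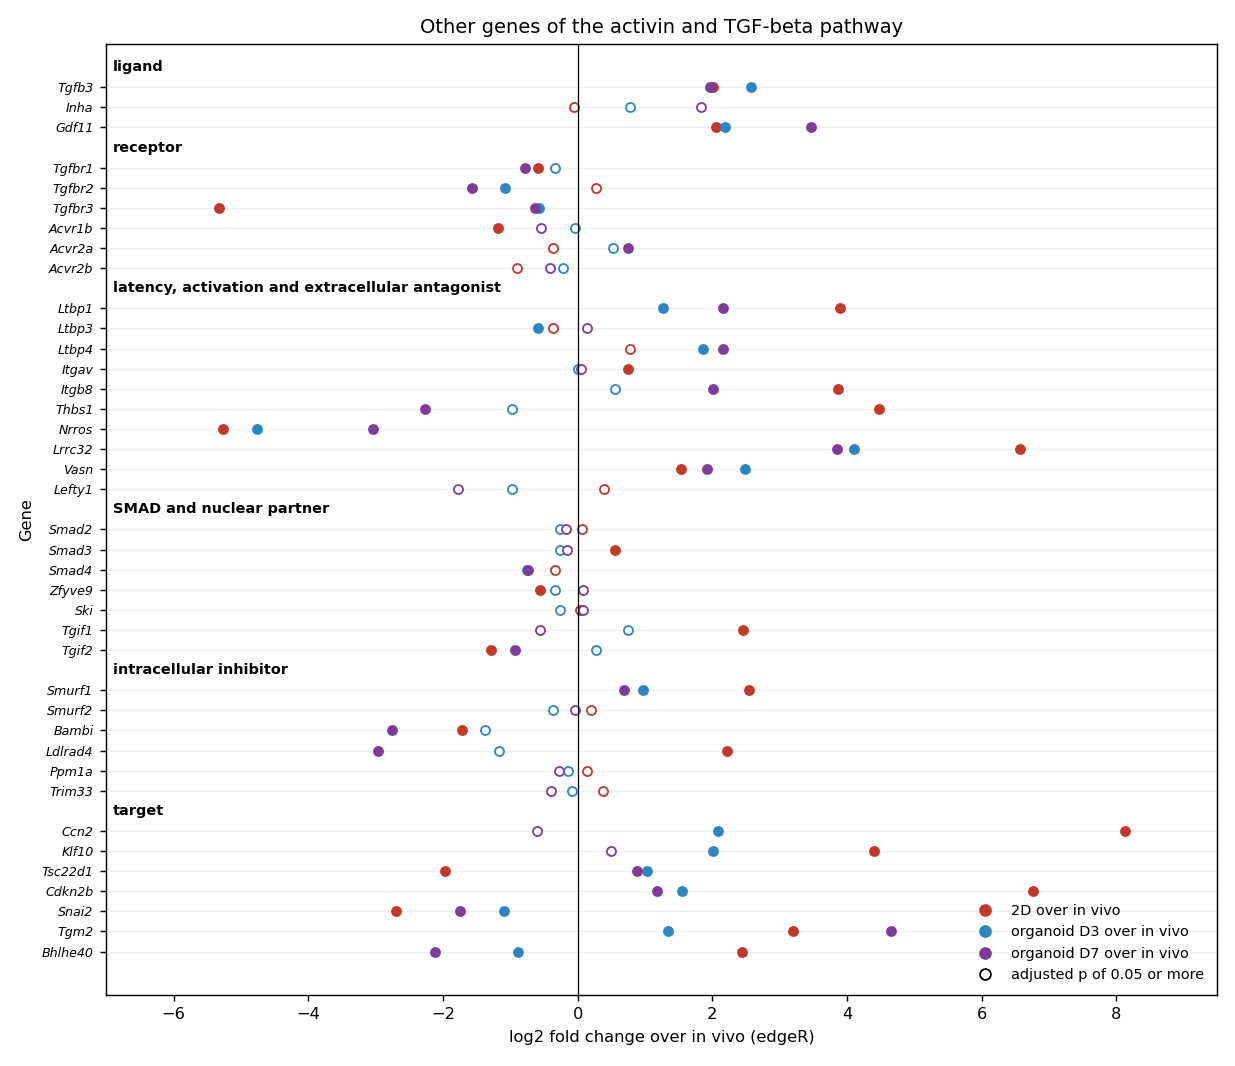
Log2 fold changes over *in vivo* of the 39 other pathway genes that were tested, grouped by role, in 2D culture, D3 organoids and D7 organoids. Filled points passed an adjusted p of 0.05. Receptor genes called in 2D culture are all below 0, with *Tgfbr3* at -5.33. In 2D culture 5 of 7 target genes are above 0, with *Ccn2* at 8.13, and in D3 organoids 5 of 7 are too.

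Among 3 further ligand genes tested, *Tgfb3* and *Gdf11* rose in 2D culture. *Tgfb3* had 9.57 and 11.0 CPM *in vivo*, 44.4 and 39 CPM in 2D culture, 66.8 and 56.3 CPM in D3 organoids and 44.7 and 35.4 CPM in D7 organoids. It rose over *in vivo* in each culture (2.01 ± 0.23 in 2D, 2.57 ± 0.23 in D3 and 1.96 ± 0.23 in D7). *Tgfb3* was lower in 2D culture than in D3 organoids (-0.56 ± 0.20, adjusted p = 0.0389), where *Tgfb2* was higher. This *Tgfb3* call was not checked under alternatives. *Gdf11*, a ligand related to myostatin, rose by 2.06 ± 0.62 in 2D culture (adjusted p = 0.0124), with the call lost without *in vivo* replicate 1 or 2D replicate 1 and values of 1.23 to 5.18 when a library was left out. It rose by 2.19 ± 0.61 in D3 organoids (adjusted p = 0.0117) and by 3.46 ± 0.59 in D7 organoids (adjusted p = 0.000219), where its mean was 18.4 CPM against 6.97 CPM in 2D culture. *Tgfb3* and *Gdf11* overlap *Ttll5* and *Sarnp* on the opposite strand, whose counts reached 190 and 438.

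Of 6 receptor genes tested, 3 fell in 2D culture and none rose, where 21.7% of all genes were lower. In D3 organoids 2 fell and none rose, where 14% of all genes were lower. In D7 organoids 3 fell and 1 rose, where 16.8% of all genes were lower and 18% higher. *Tgfbr3*, which encodes betaglycan, a co-receptor that presents TGF-beta2 and binds inhibin, had 62.3 and 64.7 CPM *in vivo*, 2.00 and 1.11 CPM in 2D culture, 43.1 and 42.2 CPM in D3 organoids and 45.3 and 36.8 CPM in D7 organoids. It fell 40.2-fold in 2D culture (log2 fold change -5.33 ± 0.30, adjusted p = 2.76e-10). It was also lower in organoids, by far less (-0.57 ± 0.20 in D3 and -0.63 ± 0.20 in D7, adjusted p = 0.0437 and 0.0243). These organoid calls were not checked under alternatives. *Acvr1b*, the type I activin receptor, fell by 1.19 ± 0.36 in 2D culture (adjusted p = 0.0127, lost without either 2D library). *Tgfbr1* fell by 0.59 ± 0.22 (adjusted p = 0.0387), a call lost under DESeq2 (adjusted p = 0.0804) and 5 other alternatives. *Tgfbr2*, chosen after its values were seen, had 41.8 and 37.0 CPM *in vivo* and 49.6 and 45.1 CPM in 2D culture (0.27 ± 0.23, adjusted p = 0.381), and fell in D3 organoids (-1.08 ± 0.24, adjusted p = 0.00269) and D7 organoids (-1.57 ± 0.25, adjusted p = 0.000109).

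Genes for latency, activation and extracellular antagonists were called higher in 2D culture in 6 of 10 cases and lower in 1. Among all genes 19.9% were higher and 21.7% lower. In D3 organoids 4 were higher and 2 lower (14.1% and 14% of all genes). In D7 organoids 5 were higher and 2 lower (18% and 16.8% of all genes). *Ltbp1* encodes a protein that anchors latent TGF-beta in the matrix, and rose from 10.4 and 9.87 CPM *in vivo* to 128 and 175 CPM in 2D culture (3.89 ± 0.22, adjusted p = 2.76e-10). It was also higher in D3 organoids (1.27 ± 0.22) and D7 organoids (2.15 ± 0.22). *Thbs1*, whose product thrombospondin-1 can release TGF-beta from latency, rose from 5.92 and 7.33 CPM to 142 and 155 CPM in 2D culture (4.47 ± 0.32, adjusted p = 5.04e-09) but fell in D7 organoids (-2.27 ± 0.46, adjusted p = 0.000974). *Itgav*, an integrin subunit that takes part in activating latent TGF-beta, rose by 0.74 ± 0.20 in 2D culture (adjusted p = 0.00566). Its partner *Itgb6* was below the filter and is named after its values were seen: it had 11.1 and 7.61 CPM in 2D culture and 0 to 0.620 CPM elsewhere.

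Of 7 SMAD and nuclear partner genes, 2 rose and 2 fell in 2D culture, where 19.9% of all genes were higher and 21.7% lower. *Tgif1*, named after its values were seen, rose from a mean of 14.5 CPM *in vivo* to 78.9 CPM in 2D culture (2.46 ± 0.31, adjusted p = 5.2e-06). *Smad3* rose by 0.56 ± 0.19 (adjusted p = 0.0246), a call lost with library size scaling (0.38, adjusted p = 0.119) and without either *in vivo* library or 2D replicate 1. *Zfyve9*, which encodes the adaptor SARA, fell by 0.56 ± 0.16 (adjusted p = 0.00901, and 0.0692 without 2D replicate 1), and *Tgif2*, a transcriptional repressor, fell by 1.28 ± 0.23 (adjusted p = 0.000254). *Cc2d1b* overlaps *Zfyve9* and *5430405H02Rik* overlaps *Tgif2* on the opposite strand, with up to 269 and 137 counts.

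Among 6 further intracellular inhibitors, 2 rose and 1 fell in 2D culture, where 19.9% of all genes were higher and 21.7% lower. *Smurf1*, a ubiquitin ligase that works with SMAD7, rose from 17.8 and 15.7 CPM *in vivo* to 98.7 and 95.4 CPM (2.54 ± 0.21, adjusted p = 3.04e-08), and was higher in D3 (0.96 ± 0.21) and D7 organoids (0.68 ± 0.21) too. *Ldlrad4*, a relative of *Pmepa1*, rose by 2.21 ± 0.42 (adjusted p = 0.000421) in 2D culture and fell in D7 organoids (-2.97 ± 0.58, adjusted p = 0.000686). *Fam210a* overlaps it on the opposite strand, with up to 171 counts. *Bambi*, a decoy receptor, fell by 1.72 ± 0.65 (adjusted p = 0.0417), which was lost without *in vivo* replicate 1 or either 2D library.

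All 7 further target genes tested were called in 2D culture over *in vivo*, 5 higher and 2 lower. Among all genes 19.9% were higher and 21.7% lower. The target genes called higher in 2D culture were *Ccn2*, *Cdkn2b*, *Klf10*, *Tgm2* and *Bhlhe40*, and those called lower were *Snai2* and *Tsc22d1*. In D3 organoids all 7 were called too, 5 higher and 2 lower (14.1% and 14% of all genes), with *Tsc22d1* among the higher. In D7 organoids 3 were higher and 2 lower (18% and 16.8% of all genes). *Ccn2*, which encodes connective tissue growth factor, had 0.348 and 1.41 CPM *in vivo*, 304 and 227 CPM in 2D culture, 4.56 and 3.50 CPM in D3 organoids and 0.992 and 0 CPM in D7 organoids. It rose by 8.13 ± 0.40 in 2D culture (adjusted p = 6.69e-11) and by 2.08 ± 0.55 in D3 organoids (adjusted p = 0.00882). *Snai2*, a repressor of epithelial genes, fell by 2.69 ± 0.17 in 2D culture (adjusted p = 1.18e-09) and also in organoids (-1.10 ± 0.16 in D3 and -1.75 ± 0.16 in D7). *Tsc22d1*, first found as a TGF-beta induced transcript, fell by 1.97 ± 0.15 in 2D culture (adjusted p = 7.88e-09) but rose in D3 organoids (1.03 ± 0.14) and D7 organoids (0.88 ± 0.14).

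The 3 genes most like each member across the 8 libraries were found by the root mean square (RMS) difference of log2(CPM + 1), centred on each gene's mean, among 9018 genes with a mean of at least 10 CPM. This is a description, and the 8 points share 4 groups of libraries. *Inhba* was closest to *Tm4sf1* (RMS difference 0.44), *S100a6* (0.68) and *Ankrd1* (0.76). *Fst* was closest to *Mcam* (0.39), *Cdkn2b* (0.41), which is on the target list, and *Cav1* (0.46). *Pmepa1* was closest to *Krt7* (0.34), *Serpinb1a* (0.41) and *Col8a1* (0.41).

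Genes of moderate change had closer neighbours. The first were *Itsn2* for *Smad7* (0.084), *Cnih4* for *Skil* (0.10), *Cdh1*, which encodes E-cadherin, for *Tgfb2* (0.11) and *Chpf2* for *Tgfb1* (0.12). *Inhbb* was closest to *Mroh1* (0.20), *Fstl3* to *Adam8* (0.22) and *Tgfbi* to *Zdhhc2* (0.29). Among the 10 genes themselves, the closest pair was *Tgfb2* and *Skil* (0.17), followed by *Smad7* and *Skil* (0.27) and *Tgfb2* and *Smad7* (0.28).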

How the data were processed

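The authors prepared libraries with the QuantSeq 3′ mRNA method, sequenced them, aligned reads to GRCm39 with STAR and deposited raw counts per Ensembl gene for each library, without normalization. Strand setting, annotation release and treatment of reads mapping to several places are not given in the sources used here. Of 56923 gene rows, 56236 matched GENCODE symbols and 687 did not.

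Counts were analysed in R 4.3.3 with edgeR 4.0.16 (genes with CPM of at least 1 in at least 3 libraries, TMM factors 0.880 to 1.09, quasi-likelihood test, all 8 libraries in 1 model), with limma 3.58.1 and DESeq2 1.42.0 as alternatives. The authors used edgeR and limma-voom. CPM values are counts over the scaled total of the genes kept. Replicates differed by more than counting noise (chi-square per degree of freedom 7.05 to 8.94). With 2 libraries against 2 an exact permutation test cannot go below p = 0.333. The procedure was also run on simulated counts with known changes in far fewer genes than were called here. That run is a check of its working and no support for the calls.

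The genes, lists and named-gene rule were chosen with earlier results of these data known. All 10 members are named, and of each wider list up to 3 genes called in 2D over *in vivo* with the highest mean CPM. Ratios to *Inhba in vivo* were set against its own counts, with a counting interval, in place of a planned bound over 3 counts. Lists of endothelial, erythroid and myeloid genes summed to at most 5.22, 7.76 and 12.3 CPM in a library.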

Additional observations from a re-analysis of the deposited data

How the results depend on the processing

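Of 28 changes past the threshold among the 10 genes, 23 kept direction and side of the threshold under each alternative that could be run. The 28 include those of *Inhba* over *in vivo* in organoids, which are descriptions. The 5 that did not keep them, of *Fst*, *Inhbb* and *Skil* in comparisons with D7 or D3 organoids, are given with their results. None reversed. The alternatives were other library scaling, no filter or a filter at a mean of 10 CPM (which leaves out *Tgfb1* and *Fstl3*), the DESeq2 Wald test, limma-voom, a fit of the compared groups alone, a replicate block and each library left out in turn, where the lone library is assumed to vary like the other groups. The ranges of the wider pathway genes were added after seeing the data. *Tgfb1*, *Fstl3*, *Fst*, *Inhba*, *Inhbb* and *Tgfbi* had fewer than 50 counts in at least 1 library, where counting error is largest.

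Leaving out a library gave 1 to 3 members called for D7 over *in vivo*, 3031 to 4798 of all genes for that comparison and 1217 to 2285 for D7 over D3, with the lowest of all-gene counts without D7 replicate 2, the shallowest library. The count of members for D7 over *in vivo* is here over all 10 genes and includes *Inhba*, given above as a description. With all libraries in it was 4. The calls of *Fst*, *Inhbb* and *Skil* were all lost without *in vivo* replicate 1, and likewise without D7 replicate 1, which left *Inhba* alone. With the replicate number as a block, 4 members in place of 3 were called for D7 over D3, since *Fst* passed (-1.09, adjusted p = 0.043). No other count of members changed. The numbers share no stated mouse or litter, and deviations of equal numbers correlated at 0.038 to 0.149 across genes. With library size alone the median of all genes in 2D over *in vivo* moved from -0.06 to -0.24, and to -0.29 and -0.31 in 2D over D3 and D7. In 2D over *in vivo*, 22 to 28 wider pathway genes were called with all libraries in and 20 to 25 with a library left out.

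Changes that did not pass the test had no stable sign where they were near 0. For D7 over D3 the log2 fold change was -0.0017 for *Tgfb1*, -0.012 for *Tgfb2*, -0.012 for *Fstl3* and -0.040 for *Smad7* without the 18S ribosomal RNA gene; -0.0038 for *Tgfb2*, -0.0043 for *Fstl3* and -0.038 for *Smad7* with library size alone; -0.011 for *Tgfb2*, -0.0085 for *Fstl3* and -0.036 for *Smad7* without a filter on low counts; -0.015 for *Fstl3* and -0.023 for *Smad7* in a fit of the compared groups alone; -0.013 for *Smad7* with DESeq2 size factors; -0.0089 for *Smad7* with the DESeq2 Wald test; -0.021 for *Smad7* with limma-voom; 0.031 for *Skil* with a filter at a mean of 10 CPM. Leaving out a library moved others across 0. For D3 over *in vivo* they ran from -0.68 to 0.39 for *Inhbb*, -0.61 to 0.027 for *Pmepa1* and -0.094 to 0.50 for *Smad7*. For D7 over *in vivo* they ran from -0.33 to 0.14 for *Pmepa1*, -0.073 to 0.51 for *Smad7* and -0.58 to 0.12 for *Tgfbi*. For 2D over D3 they ran from -0.19 to 0.068 for *Tgfb1*. For 2D over D7 they ran from -0.31 to 0.092 for *Tgfb1*. For D7 over D3 they ran from -0.14 to 0.26 for *Tgfb1*, -0.20 to 0.25 for *Tgfb2*, -0.53 to 0.48 for *Fstl3*, -0.13 to 0.50 for *Pmepa1*, -0.18 to 0.22 for *Smad7* and -0.086 to 0.059 for *Skil*. The cause was not tested.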
